A study of Homo sapiens with 6 samples.

Results

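The nuclear genes for the respiratory chain and ATP synthase were followed in H1299 cells that overexpress the long non-coding RNA lncBCAS1-4_1. Genes were chosen by symbol: those starting with NDUFA, NDUFB, NDUFC, NDUFS or NDUFV and a digit, the SDH genes A to D, those starting with UQCR, COX4 to COX8 or ATP5, and CYC1 and CYCS. The pattern matched 98 of 19201 entries. NDUFA4, 2 antisense RNAs and 8 pseudogenes were left out, which leaves 87 genes, all of which were tested. An annotated gene overlaps 53 of them, for 39 on the opposite strand. The strand setting of the counts is not given in the sources used here, so reads of such neighbours cannot be told apart. A total of 81 are subunits or close isoforms: 36 for complex I, 4 for complex II, 9 for complex III, cytochrome c itself, 13 for complex IV and 18 for complex V. The other 6 carry a matching name but are a low-expressed paralogue, readthrough or divergent transcripts and an intronless copy.

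H1299 is a long-established line of human lung cancer cells of the non-small cell type. Total RNA of 3 libraries labelled as overexpressing lncBCAS1-4_1 and 3 wild-type control libraries was sequenced. The labels name no vector, promoter or clone, and none for the controls, so an effect of the overexpression procedure and one of the RNA cannot be told apart. The level of the overexpressed RNA itself was not analysed here. Separate cultures are not stated for the libraries of a group. The p-values therefore measure only how far these libraries spread, which can be technical variation.

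Respiratory complex I takes electrons from NADH and complex II takes them from succinate; both pass them to ubiquinone. Complex III moves them on to cytochrome c, a small soluble carrier, and complex IV hands them to oxygen. Complexes I, III and IV pump protons out of the mitochondrial matrix, and ATP synthase, or complex V, lets them back through a turning ring of c subunits to make ATP. All subunits of complex II and most of the others are encoded in the nucleus and imported, while a few core subunits of complexes I, III, IV and V are encoded in mitochondrial DNA. In cancer cells the balance of this chain against glycolysis is a long-standing question, and the series title names glycolysis.

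Total counts ran from 84531039 to 90102655 in the overexpressing libraries and from 87393887 to 92780032 in the controls. Levels are given as CPM, counts per 1000000 counts of a TMM-scaled library. The epithelial keratin KRT8 was at 446 CPM in overexpressing cells and 368 CPM in controls. Of 18 markers of fibroblasts, macrophages, T cells and endothelium, 9 were in the table. CD68, which many cell types express, was at 83.2 CPM in overexpressing cells and 71.9 CPM in controls; the rest summed to 4.06 to 5.09 CPM in the overexpressing libraries and 3.47 to 4.73 CPM in the controls. CD68 was higher as fitted, at 0.21 (adjusted p = 0.0094) on the log2 scale, as was the macrophage receptor CSF1R, with 34, 22 and 22 counts in overexpressing libraries 1 to 3, against 9, 0 and 4 counts in controls 1 to 3 (log2 fold change 2.62, SE 0.919, adjusted p = 0.0496); neither passed after either correction, and their part in the results was not tested.

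Many of these genes were higher in the overexpressing cells, by small amounts. At an adjusted p under 0.05 (edgeR's quasi-likelihood test), 43 of 87 were higher and 3 lower. The whole table had 18.3% of its tested entries higher and 19.7% lower. Abundant entries, taken as those averaging 4 or more in log2 CPM, include 77 of these genes, and over all such entries the shares were 32.5% and 31.9%. The lower genes were SDHD, an anchor of complex II, ATP5PB, the b subunit in the stalk of ATP synthase, and CYCS, which is cytochrome c. The median log2 fold change was 0.16, beside -0.0041 over all tested entries. Leaving aside COX7A1 and NDUFA4L2, both counted at under 1 CPM, log2 fold changes ran from -0.27 for NDUFA5 to 0.48 for NDUFB7. The groups did not overlap for 50 higher and 5 lower genes, beside 24.7% and 26.0% of all tested entries and 38.0% and 36.7% of the abundant ones.

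Fold changes in these libraries followed GC content across the whole table, so each count is also given after a correction for it. A first correction took GC content and length from the whole canonical transcript, and a second from its coding sequence alone. With the transcript correction 35 genes were higher and 0 lower, beside 10.7% and 11.6% of all entries tested, and 19.4% and 20.7% of the abundant ones defined above. With the coding-sequence correction 23 were higher and 3 lower, beside 11.1% and 14.8% of all and 19.5% and 26.2% of abundant entries. Medians were 0.13 and 0.078. The genes changed between fits: 19 of the 43 higher genes were also higher with the transcript correction and 17 with the coding-sequence one. A set of 14 was higher in all 3 fits and 0 lower, beside 5.93% and 6.69% of all entries, and 10.3% and 11.9% of the abundant ones.

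**Figure D1:**
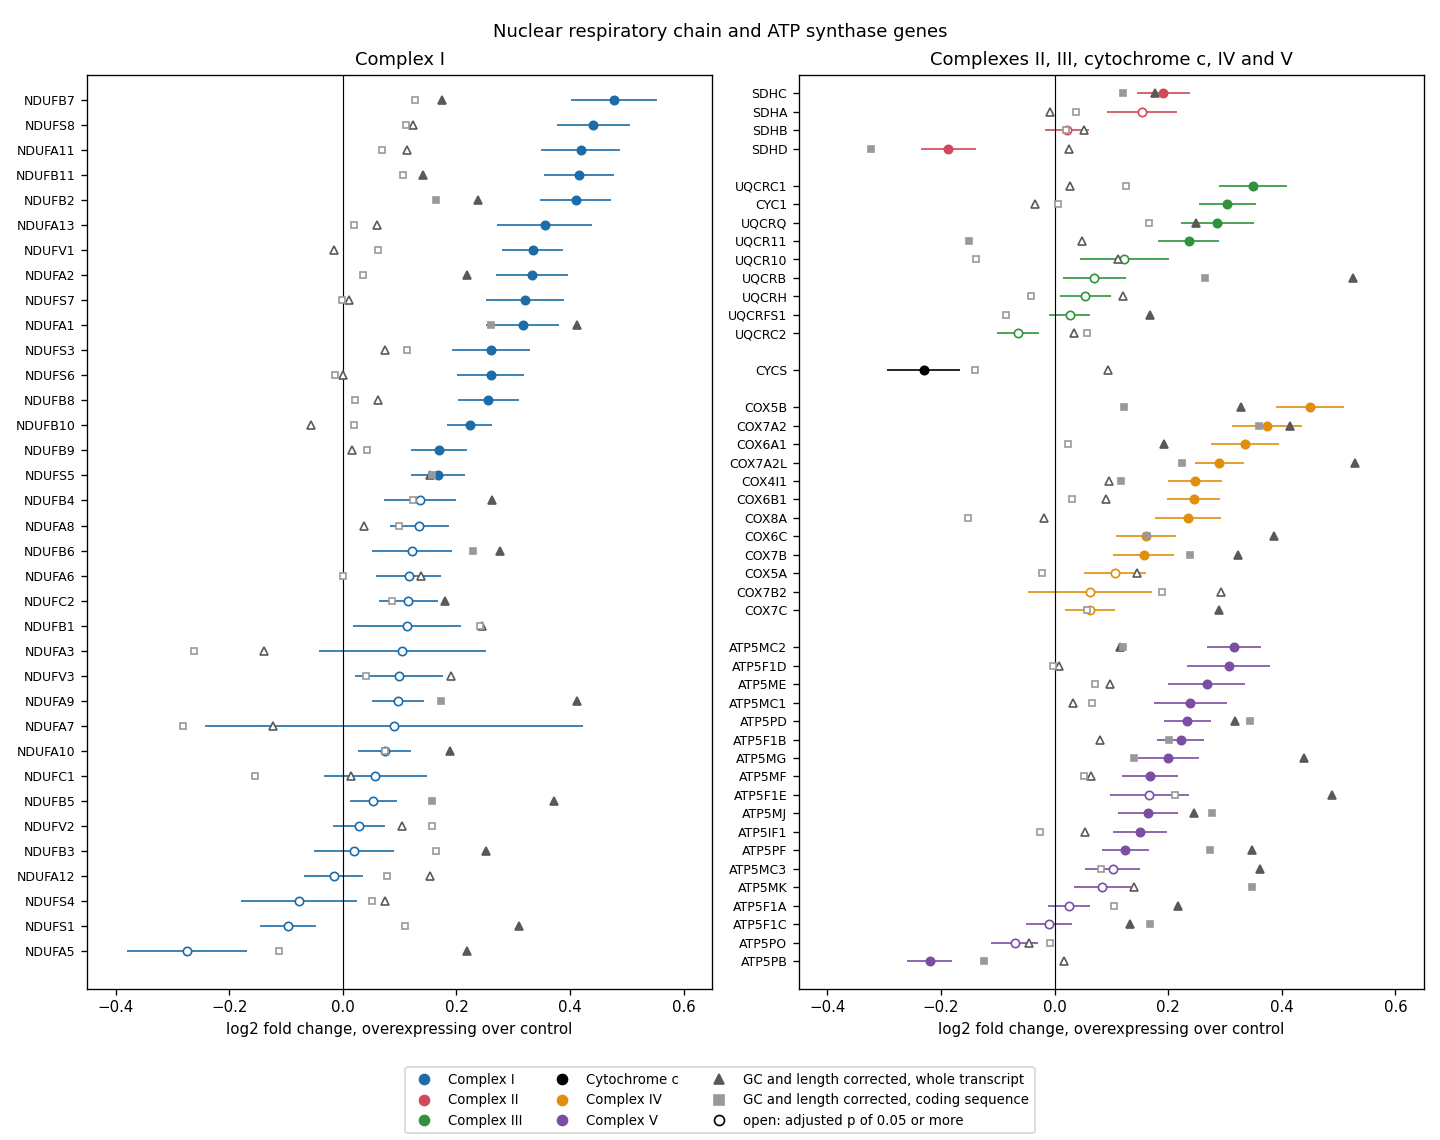
Log2 fold change (overexpressing over control, n = 3 each) of 79 subunit genes by complex; circles with SE bars are values as fitted, triangles and squares the transcript and coding-sequence corrections, and filled symbols passed an adjusted p of 0.05. COX7A1 is left out for its few counts, and 1 other gene is not shown. Most circles lie right of 0, while SDHD, CYCS and ATP5PB lie left, and triangles and squares often part from the circles.

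The genes higher in all 3 fits were NDUFB2, NDUFA1 and NDUFS5 of complex I, SDHC of complex II, COX5B, COX7A2, COX7A2L, COX7B and COX6C of complex IV, and ATP5MC2, ATP5PD, ATP5PF, ATP5MJ and ATP5MG of ATP synthase. No subunit of complex III and no core subunit of complex I was among them. NDUFB2, NDUFA1, COX5B, COX7A2, COX7A2L and ATP5PD also stayed higher, as fitted and with the transcript correction, without each of the 6 libraries left out in turn. Of the 43 genes higher as fitted, 28 stayed so without each library. Without control 2 the count as fitted was 28, where higher entries over the whole table went from 3496 to 2586. With the transcript correction the count was 18 without control 1 and 18 without control 2. Whole-table counts of these corrected fits are not given here. With library size alone in place of TMM, 35 were higher and 7 lower, beside 2908 and 4274 entries over the whole table.

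**Figure D2:**
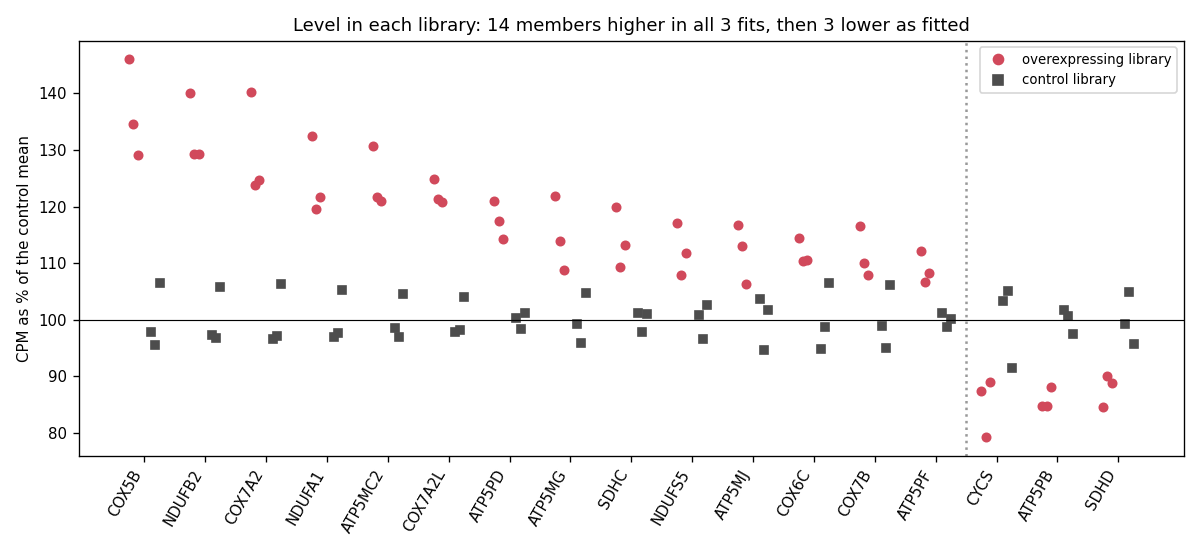
Level of each gene in each library as a percentage of the control mean (y axis, CPM), for the 14 genes higher in all 3 fits and, right of the dotted line, the 3 lower as fitted. Circles are overexpressing and squares control libraries. For each of the 17 genes the groups do not overlap, and overexpressing library 1 is the highest in all 14. The genes were picked by their calls in these same libraries, so the lack of overlap is not a separate result.

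Promoters are printed for 3 of the genes higher in all 3 fits, all of which hold a match to a motif below, and for the 3 lower as fitted. Many promoters of respiratory chain genes are known to bind NRF1, GABP (also called NRF2) and YY1. The 300-base windows lie around a start that the RefSeq table gives (GRCh38.p14; of several for a gene, the first listed) and are written 5′ to 3′ along the gene's strand. The GENCODE gene starts of ATP5PB, ATP5PF and ATP5MJ lie upstream of their windows. Capitals mark matches on either strand to CGCNTGCG for NRF1, CCGGAAGT for GABP and AAGATGGC for YY1.
COX5B, chr2:97645812-97646111, plus strand: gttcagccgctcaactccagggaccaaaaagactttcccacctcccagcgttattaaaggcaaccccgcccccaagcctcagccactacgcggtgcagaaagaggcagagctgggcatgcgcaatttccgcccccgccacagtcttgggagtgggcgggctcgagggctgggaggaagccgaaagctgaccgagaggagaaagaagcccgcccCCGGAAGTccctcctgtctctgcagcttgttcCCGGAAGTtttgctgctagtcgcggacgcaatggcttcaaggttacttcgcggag
ATP5PF, chr21:25735005-25735304, minus strand: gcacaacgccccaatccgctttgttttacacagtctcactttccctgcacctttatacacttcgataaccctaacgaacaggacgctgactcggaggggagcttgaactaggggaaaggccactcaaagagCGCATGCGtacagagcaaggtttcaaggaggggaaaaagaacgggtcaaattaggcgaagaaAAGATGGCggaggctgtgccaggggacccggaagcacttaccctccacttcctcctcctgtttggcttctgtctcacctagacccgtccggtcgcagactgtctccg
ATP5MJ, chr14:103921480-103921779, minus strand: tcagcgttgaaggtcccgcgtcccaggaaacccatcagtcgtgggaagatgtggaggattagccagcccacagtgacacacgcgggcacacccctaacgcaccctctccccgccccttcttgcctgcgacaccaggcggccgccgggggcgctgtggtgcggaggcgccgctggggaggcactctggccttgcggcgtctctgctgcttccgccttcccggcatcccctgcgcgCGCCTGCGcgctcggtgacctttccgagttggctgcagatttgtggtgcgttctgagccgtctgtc
ATP5PB, chr1:111449214-111449513, plus strand: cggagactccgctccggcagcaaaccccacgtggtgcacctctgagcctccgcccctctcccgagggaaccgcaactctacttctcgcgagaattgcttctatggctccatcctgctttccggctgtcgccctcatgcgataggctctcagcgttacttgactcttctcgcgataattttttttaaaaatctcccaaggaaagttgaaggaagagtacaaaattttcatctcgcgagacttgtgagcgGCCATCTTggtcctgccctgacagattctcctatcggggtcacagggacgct
CYCS, chr7:25125211-25125510, minus strand: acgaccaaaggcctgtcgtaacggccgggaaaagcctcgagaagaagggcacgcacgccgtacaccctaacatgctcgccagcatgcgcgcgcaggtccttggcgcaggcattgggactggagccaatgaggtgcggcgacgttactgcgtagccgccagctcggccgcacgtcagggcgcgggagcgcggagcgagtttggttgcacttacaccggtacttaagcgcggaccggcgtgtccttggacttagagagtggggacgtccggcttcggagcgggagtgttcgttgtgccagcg
SDHD, chr11:112086623-112086922, plus strand: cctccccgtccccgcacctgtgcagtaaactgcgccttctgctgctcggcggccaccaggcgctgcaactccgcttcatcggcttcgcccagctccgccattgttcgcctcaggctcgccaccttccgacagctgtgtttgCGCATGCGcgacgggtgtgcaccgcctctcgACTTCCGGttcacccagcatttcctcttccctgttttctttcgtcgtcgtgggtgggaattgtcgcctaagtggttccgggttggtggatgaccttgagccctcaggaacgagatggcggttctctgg
COX5B holds 2 GABP matches, ATP5MJ holds 1 NRF1 match, ATP5PF holds 1 NRF1 and 1 YY1 match, ATP5PB holds 1 YY1 match, and SDHD holds 1 NRF1 and 1 GABP match. CYCS holds none of these letters in this window.

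Of the 81 subunit genes, 67 had a promoter in the table. An NRF1 match lay in 23 of them (34.3%), against 21.7% of promoters of abundant coding genes and 10.04% of all promoters. GABP matches lay in 10 (14.9%), against 10.5% and 4.14%. YY1 matches lay in 11 (16.4%), against 6.86% and 2.89%. Any of these was present in 5 of 11 promoters of the genes higher in all 3 fits, with 6 that hold none, and in 29 of 56 of the others. These are counts of letters, not of bound sites.

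Complex I had 17 of its 36 genes higher as fitted and 0 lower; the median change was 0.14 on the log2 scale. Summed over the complex, levels were 3363, 3079 and 3060.5 CPM in overexpressing libraries 1 to 3, against 2696, 2687 and 2833 CPM in controls 1 to 3. The lowest overexpressing sum lay above the highest control sum. With the transcript correction 15 were higher and with the coding-sequence correction 7 (19.4%). In all 3 fits 3 were higher (8.33%). As fitted, with the transcript and with the coding-sequence correction, 18.3%, 10.7% and 11.1% of all tested entries were higher. Of abundant entries 32.5%, 19.4% and 19.5% were. As fitted, 19.7% of all and 31.9% of abundant entries were lower. In all 3 fits the shares were 5.93% of all and 10.3% of abundant entries. The core subunits are the ones that have counterparts in bacteria, and 5 of the 7 nuclear ones were higher as fitted, NDUFS8 and NDUFV1 among them. Only NDUFS1, at a log2 fold change of -0.10 as fitted, was higher among them with the transcript correction, at 0.31 with an adjusted p of 0.0025. Of the 29 supernumerary subunits, which surround the core, 12 were higher as fitted and 14 with the transcript correction.

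NDUFS8, a core subunit with iron-sulfur clusters, was at 166, 146 and 144 CPM in overexpressing libraries 1 to 3, against 111, 106 and 118 CPM in controls 1 to 3. It was higher as fitted (log2 fold change 0.44, SE 0.064, adjusted p = 0.00087) but not with the transcript correction, where its log2 fold change was 0.12 with an adjusted p of 0.072. NDUFB7, a supernumerary subunit of the membrane arm that faces the intermembrane space, was at 145, 125 and 122 CPM in overexpressing libraries 1 to 3, against 89.5, 90.5 and 102 CPM in controls 1 to 3. It rose the most of the complex I genes (log2 fold change 0.48, SE 0.075, adjusted p = 0.0013) and stayed higher with the transcript correction at 0.17 with an adjusted p of 0.023, though not without control 1 or control 2 there. Its coding-sequence value was 0.13 with an adjusted p of 0.08. NDUFB11, another membrane-arm subunit and encoded on the X chromosome, was at 113, 102 and 97.3 CPM in overexpressing libraries 1 to 3, against 77.7, 75.3 and 81.6 CPM in controls 1 to 3. Its groups did not overlap (log2 fold change 0.42, SE 0.062, adjusted p = 0.00096), and its transcript-corrected log2 fold change was 0.14 with an adjusted p of 0.034, a call lost without any 1 of the controls or overexpressing library 1.

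NDUFB2, a small subunit of the membrane arm, was at 45.1, 41.6 and 41.6 CPM in overexpressing libraries 1 to 3, against 31.3, 31.2 and 34.1 CPM in controls 1 to 3. Each overexpressing library was above each control (log2 fold change 0.41, SE 0.062, adjusted p = 0.0011), and it stayed higher with the transcript correction at 0.24 with an adjusted p of 0.0071 and with the coding-sequence one at 0.16 with an adjusted p of 0.031. The gene overlaps BRAF and NDUFB2-AS1 on the opposite strand. NDUFA1, a small X-linked subunit needed for assembly of the membrane arm, was at 42.8, 38.6 and 39.3 CPM in overexpressing libraries 1 to 3, against 31.3, 31.6 and 34.0 CPM in controls 1 to 3. It was higher in all 3 fits (log2 fold change 0.32, SE 0.064, adjusted p = 0.0041), with corrected values of 0.41 with an adjusted p of 0.0016 and 0.26 with an adjusted p of 0.011. NDUFS5 was higher in all 3 fits too, but by a smaller amount, 0.17 (adjusted p = 0.021). Its call as fitted was lost without control 1, control 2 or overexpressing library 1. The transcript-corrected call was lost without control 1, control 2, overexpressing library 1 or overexpressing library 3.

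The remaining genes higher as fitted, from NDUFA11 at a log2 fold change of 0.42 to NDUFB9 at 0.17, all had a smaller value with the transcript correction. NDUFV1, which binds the flavin that accepts electrons from NADH, was at 0.33 (adjusted p = 0.0014) as fitted and -0.016 with an adjusted p of 0.83 with the transcript correction. NDUFS7, another iron-sulfur core subunit, was at 0.32 (adjusted p = 0.0054) as fitted and 0.011 with an adjusted p of 0.89 corrected. A converse group did not pass as fitted and was higher with the transcript correction: NDUFA5, NDUFC2, NDUFB4, NDUFA9, NDUFS1, NDUFB6, NDUFA10, NDUFB5 and NDUFB3. Of these, only NDUFA9, NDUFS1 and NDUFB5 kept that call without each library left out in turn. Only NDUFA9, NDUFB6 and NDUFB5 also passed the coding-sequence correction. Canonical transcripts of this group ran from 493 bases for NDUFB3 to 11660 for NDUFS1, and coding sequences from 294 to 2181. The part of length and base composition in these calls was not tested. NDUFA9, which helps join the peripheral arm to the membrane arm, was at 0.10 as fitted. It was at 0.41 with an adjusted p of 0.001 with the transcript correction and 0.17 with an adjusted p of 0.031 with the coding-sequence correction. NDUFA5 was at -0.27 as fitted, 0.22 with an adjusted p of 0.022 with the transcript correction and -0.11 with an adjusted p of 0.35 with the coding-sequence one.

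Complex II is the one complex built from nuclear genes alone, and its 4 genes did not move together. SDHA holds the flavin that oxidises succinate. Its levels were 221, 202 and 191 CPM in overexpressing libraries 1 to 3, against 173, 184 and 194 CPM in controls 1 to 3, and it did not pass the test (log2 fold change 0.15, SE 0.062, adjusted p = 0.082). SDHB, the iron-sulfur subunit, was at 157, 160.4 and 155 CPM in overexpressing libraries 1 to 3, against 158, 155 and 152 CPM in controls 1 to 3 (log2 fold change 0.022, SE 0.039, adjusted p = 0.7), and its groups overlapped.

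The membrane anchors SDHC and SDHD went opposite ways as fitted. SDHC was at 118, 108 and 112 CPM in overexpressing libraries 1 to 3, against 99.8, 96.5 and 99.6 CPM in controls 1 to 3. It was higher (log2 fold change 0.19, SE 0.046, adjusted p = 0.01), also with the transcript correction at 0.18 with an adjusted p of 0.023 and the coding-sequence one at 0.12 with an adjusted p of 0.045; without control 2 the call as fitted was lost, and without control 1 or control 2 the transcript-corrected one. SDHD was at 99.2, 106 and 104 CPM in overexpressing libraries 1 to 3, against 116, 123 and 112 CPM in controls 1 to 3. It was lower (log2 fold change -0.19, SE 0.048, adjusted p = 0.014), with a transcript-corrected log2 fold change of 0.025 with an adjusted p of 0.81, a coding-sequence-corrected one of -0.32 with an adjusted p of 0.0023, and no call as fitted without control 2. The annotated SDHD locus overlaps a second coding gene on the same strand. Summed over the complex, levels were 578 ± 16.8 CPM in overexpressing cells and 555 ± 6.22 CPM in controls (SD, n = 3 each).

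Complex III had 4 of 9 genes higher as fitted, 3 with the transcript correction, and 1 higher and 1 lower with the coding-sequence one. In these fits 18.3%, 10.7% and 11.1% of all tested entries were higher, and 32.5%, 19.4% and 19.5% of abundant ones. The coding-sequence share of complex III was 11.1%. In that fit 14.8% of all and 26.2% of abundant entries were lower. Its summed level was 1812 ± 99.4 CPM in overexpressing cells and 1603 ± 19.0 CPM in controls (SD, n = 3 each). CYC1, cytochrome c1, passes electrons to cytochrome c. It was at 404, 366 and 359 CPM in overexpressing libraries 1 to 3, against 306, 298 and 311 CPM in controls 1 to 3, with no overlap between the groups (log2 fold change 0.30, SE 0.050, adjusted p = 0.0016). Its transcript-corrected value was -0.035 with an adjusted p of 0.62. UQCRC1, a large core protein that faces the matrix, was at 474, 423 and 406 CPM in overexpressing libraries 1 to 3, against 329, 337 and 357 CPM in controls 1 to 3. Its log2 fold change as fitted was 0.35 (adjusted p = 0.0019), and with the transcript correction it was 0.026 with an adjusted p of 0.76.

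The small subunits of complex III differed by fit. UQCRQ, which lies next to cytochrome b, was at 81.4, 70.7 and 73.9 CPM in overexpressing libraries 1 to 3, against 64.2, 57.7 and 63.3 CPM in controls 1 to 3. It was higher as fitted (log2 fold change 0.29, SE 0.064, adjusted p = 0.0069) and with the transcript correction at 0.25 with an adjusted p of 0.025, but not with the coding-sequence one at 0.17 with an adjusted p of 0.057; the transcript-corrected call was lost without control 1, control 2 or overexpressing library 1. UQCR11, one of the small membrane subunits, was at 99.8, 94.0 and 88.2 CPM in overexpressing libraries 1 to 3, against 81.2, 77.2 and 81.1 CPM in controls 1 to 3. It was higher as fitted (log2 fold change 0.24, SE 0.053, adjusted p = 0.0071) and lower with the coding-sequence correction, at -0.15 with an adjusted p of 0.022, so its direction depends on the fit. UQCRB, which sits near the ubiquinone site, was at 0.070 as fitted, 0.53 with an adjusted p of 0.0008 with the transcript correction and 0.26 with an adjusted p of 0.0043 with the coding-sequence one. The other core protein UQCRC2 and the Rieske iron-sulfur protein UQCRFS1 had log2 fold changes of -0.065 and 0.026 as fitted and did not pass. UQCRFS1 passed the transcript correction at 0.17 with an adjusted p of 0.025, a call lost without control 1, control 2 or overexpressing library 2, and was at -0.085 with an adjusted p of 0.083 with the coding-sequence one.

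Cytochrome c was lower in the overexpressing cells. CYCS was at 193, 175 and 196 CPM in overexpressing libraries 1 to 3, against 228, 232 and 202 CPM in controls 1 to 3. The groups did not overlap (log2 fold change -0.23, SE 0.064, adjusted p = 0.019), yet the call was lost without control 1, control 2 or overexpressing library 2. After the transcript correction the log2 fold change was 0.094 with an adjusted p of 0.15, and after the coding-sequence correction -0.14 with an adjusted p of 0.067. Its partner CYC1 thus stood higher as fitted while CYCS stood lower, and neither passed a correction.

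Complex IV had 9 of 13 genes higher as fitted, 7 with the transcript correction, 6 with the coding-sequence one and 5 in all 3 fits. None was lower in any of these fits, where 19.7%, 11.6%, 14.8% and 6.69% of all entries were. Of abundant entries 31.9%, 20.7%, 26.2% and 11.9% were lower. Of all tested entries 18.3%, 10.7%, 11.1% and 5.93% were higher, in the same order, and of abundant ones 32.5%, 19.4%, 19.5% and 10.3%. Its summed level was 2037, 1901 and 1867 CPM in overexpressing libraries 1 to 3, against 1603, 1586 and 1712 CPM in controls 1 to 3. Each overexpressing library lay above each control. COX5B, a subunit on the matrix side that binds zinc, was at 125, 115 and 111 CPM in overexpressing libraries 1 to 3, against 83.8, 81.9 and 91.3 CPM in controls 1 to 3. It had the largest rise of the complex among genes past the threshold (log2 fold change 0.45, SE 0.060, adjusted p = 0.0006), and passed both corrections, at 0.33 with an adjusted p of 0.0016 and 0.12 with an adjusted p of 0.033.

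Several subunits of complex IV have tissue isoforms. COX7A2, the form found in most tissues, was at 128, 113 and 114 CPM in overexpressing libraries 1 to 3, against 88.4, 88.9 and 97.3 CPM in controls 1 to 3. It was higher as fitted (log2 fold change 0.37, SE 0.061, adjusted p = 0.0015) and after both corrections, at 0.41 with an adjusted p of 0.0013 and 0.36 with an adjusted p of 0.0018. COX7A2L, a relative that links complexes III and IV in supercomplexes, was at 111, 108 and 108 CPM in overexpressing libraries 1 to 3, against 87.1, 87.5 and 92.6 CPM in controls 1 to 3. It was higher in all 3 fits (log2 fold change 0.29, SE 0.043, adjusted p = 0.00093), at 0.53 with an adjusted p of 0.0011 and 0.22 with an adjusted p of 0.0016 after correction. COX7A1, the heart and muscle form, had 11, 15 and 18 counts in overexpressing libraries 1 to 3, against 10, 8 and 4 counts in controls 1 to 3, and it did not pass the test (log2 fold change 1.07, SE 0.69, adjusted p = 0.27).

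Of the other isoform groups, COX4I1, COX6A1, COX6B1 and COX8A were measured, and their tissue-restricted partners were not among the entries. COX6A1 was at 214, 196 and 189 CPM in overexpressing libraries 1 to 3, against 154, 152 and 169 CPM in controls 1 to 3. It passed as fitted (log2 fold change 0.34, SE 0.060, adjusted p = 0.0023) and with the transcript correction at 0.19 with an adjusted p of 0.016, where the call was lost without control 1 or control 2. COX4I1, through which ATP is known to inhibit the enzyme, was at 484, 461 and 439 CPM in overexpressing libraries 1 to 3, against 378, 383 and 405 CPM in controls 1 to 3 (log2 fold change 0.25, SE 0.048, adjusted p = 0.0033). With the transcript correction its value was 0.10 with an adjusted p of 0.12, and with the coding-sequence correction 0.12 with an adjusted p of 0.048.

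COX6B1, which joins the complexes of a dimer on the intermembrane side, was at 284, 274 and 262 CPM in overexpressing libraries 1 to 3, against 228, 223 and 240.3 CPM in controls 1 to 3. It passed as fitted (log2 fold change 0.24, SE 0.047, adjusted p = 0.0031) and neither correction, the values being 0.090 with an adjusted p of 0.094 and 0.031 with an adjusted p of 0.56. COX8A, the form of subunit 8 in most tissues, was at 245, 211 and 222 CPM in overexpressing libraries 1 to 3, against 194, 185 and 198 CPM in controls 1 to 3. Its log2 fold change was 0.24 (adjusted p = 0.011) as fitted, with no call without control 2, and both corrected values were below 0, at -0.018 with an adjusted p of 0.84 and -0.15 with an adjusted p of 0.088. COX7B was at 105, 99.0 and 97.0 CPM in overexpressing libraries 1 to 3, against 88.9, 85.4 and 95.5 CPM in controls 1 to 3. Its testis form COX7B2 was at 7.75, 9.06 and 8.96 CPM in the overexpressing libraries and 8.36, 8.19 and 8.13 CPM in the controls. COX7B passed all 3 fits (log2 fold change 0.16, SE 0.053, adjusted p = 0.045). Its call as fitted was lost without control 1, control 2, overexpressing library 1 or overexpressing library 2. The transcript-corrected call was lost without control 1 or control 2. COX7B2 overlapped between the groups (log2 fold change 0.063, SE 0.11, adjusted p = 0.71). COX6C also passed all 3 fits, at 0.16 (adjusted p = 0.04) as fitted and at 0.39 with an adjusted p of 0.0051 and 0.16 with an adjusted p of 0.045 after correction, but as fitted it kept its call among the leave-one-out fits only without control 3. COX7C passed the transcript correction alone, at 0.29 with an adjusted p of 0.005, and COX5A did not pass in any of the 3 fits.

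ATP synthase had 11 of 18 genes higher and 1 lower as fitted, 9 and 0 with the transcript correction, and 8 and 1 with the coding-sequence one. In these fits 18.3%, 10.7% and 11.1% of all tested entries were higher, and 32.5%, 19.4% and 19.5% of abundant ones. Lower entries made up 19.7%, 11.6% and 14.8% of all, and 31.9%, 20.7% and 26.2% of abundant ones. The count of higher genes fell to 4 without control 2, 6 without overexpressing library 1 and 7 without control 1. Higher entries over the whole table numbered 2586, 2786 and 2660 there, in the same order, against 3496 with all libraries. Its summed level was 4961, 4623 and 4646 CPM in overexpressing libraries 1 to 3, against 4242, 4204 and 4332 CPM in controls 1 to 3. The overexpressing sums were all above the control sums. In the catalytic head, ATP5F1B, the beta subunit that makes ATP, was at 2028, 1864 and 1901 CPM in overexpressing libraries 1 to 3, against 1653, 1632 and 1681 CPM in controls 1 to 3. It was higher as fitted (log2 fold change 0.22, SE 0.042, adjusted p = 0.0029), not with the transcript correction, at 0.080 with an adjusted p of 0.25, and again with the coding-sequence one, at 0.20 with an adjusted p of 0.015.

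The alpha subunit ATP5F1A is the partner of ATP5F1B in the head, and the gamma subunit ATP5F1C lies in the central stalk. They were at 0.025 and -0.010 on the log2 scale as fitted and did not pass. Both passed the transcript correction, at 0.22 with an adjusted p of 0.0089 and 0.13 with an adjusted p of 0.041, the ATP5F1C call being lost without control 1, control 2, overexpressing library 1 or overexpressing library 2. ATP5F1C also passed the coding-sequence correction, at 0.17 with an adjusted p of 0.016. The epsilon subunit ATP5F1E passed the transcript correction alone, at 0.49 with an adjusted p of 0.0081. ATP5F1D, the delta subunit of the central stalk, was at 221, 193 and 195 CPM in overexpressing libraries 1 to 3, against 150.3, 163 and 179 CPM in controls 1 to 3. It passed as fitted (log2 fold change 0.31, SE 0.073, adjusted p = 0.0092) and neither correction, with values of 0.0071 with an adjusted p of 0.94 and -0.0029 with an adjusted p of 0.97.

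The c subunit of the ring is made from ATP5MC1, ATP5MC2 and ATP5MC3, whose mature proteins are known to be identical and whose precursors differ in the import signal. ATP5MC2 was at 342, 318 and 316 CPM in overexpressing libraries 1 to 3, against 257, 253 and 273 CPM in controls 1 to 3. It was higher in all 3 fits (log2 fold change 0.32, SE 0.047, adjusted p = 0.001), at 0.12 with an adjusted p of 0.038 and 0.12 with an adjusted p of 0.028 after correction, but each corrected leave-one-out fit except that without control 3 lost the call. ATP5MC1 was at 171, 147 and 146 CPM in overexpressing libraries 1 to 3, against 135, 128 and 129 CPM in controls 1 to 3, higher as fitted (log2 fold change 0.24, SE 0.064, adjusted p = 0.016) though not without control 2, and at 0.032 with an adjusted p of 0.72 with the transcript correction. ATP5MC3 was at 182, 164 and 167 CPM in overexpressing libraries 1 to 3, against 157, 161 and 159 CPM in controls 1 to 3. It did not pass as fitted (log2 fold change 0.10, SE 0.049, adjusted p = 0.13) and passed the transcript correction at 0.36 with an adjusted p of 0.0043. Per kilobase of coding sequence, ATP5MC2 was the most abundant of these, at 769 CPM per kilobase in overexpressing cells and 618 in controls.

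In the peripheral stalk, which holds the head still, ATP5PB and ATP5PD moved opposite ways as fitted. ATP5PD, the d subunit, was at 118, 115 and 111 CPM in overexpressing libraries 1 to 3, against 98.0, 96.0 and 98.8 CPM in controls 1 to 3. It was higher in all 3 fits (log2 fold change 0.23, SE 0.041, adjusted p = 0.0021), at 0.32 with an adjusted p of 0.00079 and 0.34 with an adjusted p of 0.0005 after correction. ATP5PB, the b subunit, was at 128, 128 and 133 CPM in overexpressing libraries 1 to 3, against 154, 153 and 148 CPM in controls 1 to 3. It was lower as fitted (log2 fold change -0.22, SE 0.040, adjusted p = 0.0024), also without each library in turn, and lower with the coding-sequence correction at -0.12 with an adjusted p of 0.018, but not with the transcript correction, at 0.016 with an adjusted p of 0.83. It overlaps WDR77 on the opposite strand.

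ATP5PF, stalk subunit F6, had the smallest rise of the genes higher in all 3 fits, at 89.5, 85.2 and 86.3 CPM in the overexpressing libraries and 80.7, 78.8 and 79.9 CPM in the controls (log2 fold change 0.12, SE 0.041, adjusted p = 0.038). Each single library left out ended its call as fitted, while the transcript-corrected value, 0.35 with an adjusted p of 0.00093, held without each. It starts beside GABPA, which encodes the DNA-binding part of GABP and overlaps it on the opposite strand; GABPA was lower as fitted (log2 fold change -0.49, SE 0.10, adjusted p = 0.0045) and not with the transcript correction, at -0.047 with an adjusted p of 0.64. ATP5PO, the OSCP subunit that caps the stalk, did not pass (log2 fold change -0.070, SE 0.041, adjusted p = 0.23). Of the small membrane subunits, ATP5MG and ATP5MJ were higher in all 3 fits, with log2 fold changes as fitted of 0.20 (adjusted p = 0.017) and 0.16 (adjusted p = 0.035). Both calls as fitted were lost without control 2 or overexpressing library 1, among others. ATP5ME and ATP5MF were higher as fitted alone, and ATP5MK with the coding-sequence correction alone. ATP5IF1, which blocks ATP hydrolysis when the proton gradient fails, was higher as fitted (log2 fold change 0.15, SE 0.047, adjusted p = 0.033) and after neither correction, at 0.053 with an adjusted p of 0.4 and -0.026 with an adjusted p of 0.71.

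Under the criterion stated in the labels, over 2-fold with an unadjusted p under 0.05, NDUFA4L2 alone was higher and none lower, beside 1.77% and 1.18% of all tested entries. NDUFA4L2, a paralogue of NDUFA4 known as a target of hypoxia-inducible factor, had 72, 76 and 88 counts in overexpressing libraries 1 to 3, against 52, 22 and 44 counts in controls 1 to 3. Its fold was 2.10 (log2 fold change 1.07, SE 0.35, adjusted p = 0.04), not called with the transcript correction at 0.75 with an adjusted p of 0.17, and the call as fitted was lost in each leave-one-out fit except that without control 1. NDUFA4, left out by the selection, was at 171 ± 6.46 CPM in overexpressing cells and 137 ± 5.26 CPM in controls (SD, n = 3 each, with a log2 fold change 0.32, SE 0.046, adjusted p = 0.00088). The readthroughs ATP5MF-PTCD1 and NDUFC2-KCTD14, the divergent RNAs NDUFA6-DT and UQCRFS1-DT, and UQCRHL, an intronless copy of UQCRH, did not pass in any fit. UQCRH and UQCRHL are near-identical, so reads may have been split between them.

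The genes encoded in mitochondrial DNA went the other way. All 13 protein-coding ones were lower in all 3 fits, with log2 fold changes from -0.83 to -0.45 as fitted. Their summed level was 8117, 8726 and 8830.0 CPM in overexpressing libraries 1 to 3, against 14379, 14780.2 and 12936 CPM in controls 1 to 3. MT-CO1, the catalytic subunit of complex IV, was at 1765 ± 119 CPM in overexpressing cells and 3014 ± 148 CPM in controls (SD, n = 3 each, with a log2 fold change -0.77, SE 0.057, adjusted p = 5.9e-05), MT-CO3 at -0.73 (adjusted p = 5.7e-05) and MT-ND6 at -0.68 (adjusted p = 3.6e-05) on the log2 scale. Per library, the sum of mtDNA-encoded genes divided by the sum of the 81 nuclear ones was 0.621, 0.72 and 0.731 in overexpressing libraries 1 to 3 and 1.32, 1.36 and 1.15 in controls 1 to 3. In each overexpressing library the nuclear sum was the larger, and in each control the mitochondrial one. Both sums come from CPM, in which one part of a library limits the rest, and mitochondrial reads are part of that total. In complex IV alone, COX4I1 and COX5B were thus higher as fitted while MT-CO1 and MT-CO3 of the same enzyme were lower.

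**Figure D3:**
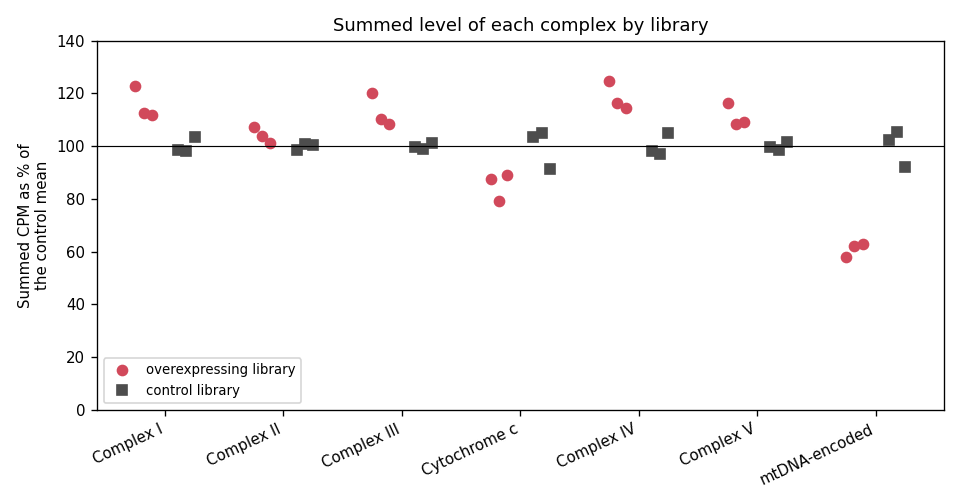
Summed level of each complex's nuclear genes, and of the 13 mtDNA-encoded genes, in each library as a percentage of the control mean (y axis, summed CPM). Circles are overexpressing and squares control libraries; the groups do not overlap in any set, and cytochrome c and the mtDNA-encoded genes are the sets with the overexpressing libraries below the controls.

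Overexpressing library 1 stood highest. The median log2 ratio of the nuclear subunit genes to their control mean was 0.23, 0.14 and 0.14 in overexpressing libraries 1 to 3, and -0.013, -0.025 and 0.045 in controls 1 to 3. Control 3 was thus the control closest to the overexpressing libraries. Without overexpressing library 1, 33 genes were higher and 3 lower, and without control 3, 41 and 4. The whole table had 2786 entries higher and 3113 lower without overexpressing library 1, and 3439 and 3673 without control 3.

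Base composition moved with these results. Across the 81 subunit genes, Spearman's rho between the log2 fold change as fitted and coding GC content was 0.67; across 10128 entries averaging at least 3 in log2 CPM it was 0.65. All these genes share the same 6 libraries, so the points are not independent. Among abundant genes with at least 55% coding GC, 22 of 25 were higher and none lower, where 58.9% of such coding entries were higher and 6.56% lower. From 48 to 55%, 14 of 27 were higher and 1 lower, where 28.0% of the entries were higher and 27.9% lower.

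Under 48% coding GC, 6 of 25 were higher and 2 lower, where 4.90% of the entries were higher and 65.4% lower. Of 77 abundant genes, 67 had a fold change above the median of coding entries of like coding GC, and under 48% it was 24 of 25. Length was not held equal in these counts. The genes are short, with a median coding length of 408 bases against 1386 for abundant coding entries, and a median transcript of 758 against 3359 bases. After the corrections the relation to coding GC turned round among these genes (rho -0.52 with the transcript correction, -0.48 with the coding-sequence one) while it was 0.047 and 0.071 over the entries. The part of base composition in each single result was not tested.

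**Figure D4:**
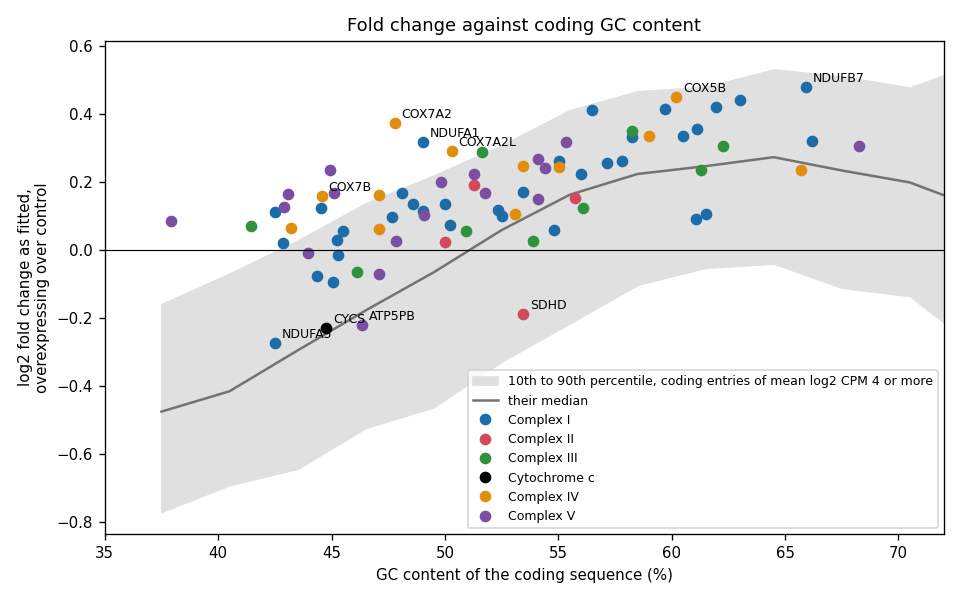
Log2 fold change as fitted (y axis, overexpressing over control) against GC content of the coding sequence (x axis, %), for 79 nuclear subunit genes coloured by complex, COX7A1 and 1 other gene left out. The grey line and band give the median and the 10th to 90th percentile of abundant coding entries in bins of GC content; most points follow the slope but lie above the line at low GC, where NDUFA5, CYCS and ATP5PB lie near it.

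Assembly factors, which build the complexes without staying in them, were called in both directions. Of 55 measured, 16 were higher and 8 lower as fitted (29.1% and 14.5%, beside 18.3% and 19.7% of all tested entries). Of abundant entries 32.5% were higher and 31.9% lower as fitted. With the transcript correction 11 factors were higher and 4 lower, beside 10.7% and 11.6% of all and 19.4% and 20.7% of abundant entries. With the coding-sequence one 4 were higher and 9 lower, beside 11.1% and 14.8% of all and 19.5% and 26.2% of abundant entries. The complex I factors FOXRED1 and ECSIT turned round, higher as fitted at 0.17 (adjusted p = 0.015) and 0.18 (adjusted p = 0.037) and lower with the transcript correction at -0.12 with an adjusted p of 0.037 and -0.18 with an adjusted p of 0.016. NDUFAF1, which helps build the membrane arm of complex I, was the one called higher in all 3 fits (18.4 ± 0.579 CPM in overexpressing cells and 13.9 ± 0.406 CPM in controls; SD, n = 3 each, with a log2 fold change 0.40, SE 0.079, adjusted p = 0.0036). NDUFAF3, another complex I factor, was higher as fitted at 0.46 (adjusted p = 0.00076), and HIGD2A, a complex IV factor, at 0.38 (adjusted p = 0.0019). Neither was higher in all 3 fits, and 0 of the 24 complex IV factors were higher with the coding-sequence correction. Among the lower ones were LYRM7, which handles the Rieske protein of complex III, at -0.72 (adjusted p = 0.0015), COA7, a complex IV factor, at -0.33 (adjusted p = 0.0096), and ATPAF1, which acts on the beta subunit of ATP synthase, at -0.29 (adjusted p = 0.0011). LYRM7, with the transcript correction, was at -0.24 with an adjusted p of 0.074, COA7 at -0.21 with an adjusted p of 0.078 and ATPAF1 at -0.12 with an adjusted p of 0.072. All 3 stayed lower with the coding-sequence correction, LYRM7 at -0.36 with an adjusted p of 0.015, COA7 at -0.42 with an adjusted p of 0.003 and ATPAF1 at -0.36 with an adjusted p of 0.00024.

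Of 13 regulators of mitochondrial gene expression, 2 were higher and 6 lower as fitted (15.4% and 46.2%), and 3 were lower in all 3 fits. As fitted, 18.3% of all tested entries were higher and 19.7% lower, and 32.5% and 31.9% of the abundant ones. In all 3 fits 6.69% of all and 11.9% of abundant entries were lower. ESRRA, a nuclear receptor that drives respiratory genes, was higher at 0.35 (adjusted p = 0.00039) and not with the transcript correction, at -0.0051 with an adjusted p of 0.95. POLRMT, the mitochondrial RNA polymerase, was higher at 0.28 (adjusted p = 0.0048) and at 0.0093 with an adjusted p of 0.91 corrected. LRPPRC, which stabilises mitochondrial mRNAs, was at 160.1, 138 and 167 CPM in overexpressing libraries 1 to 3, against 243, 243 and 219 CPM in controls 1 to 3. It was lower in all 3 fits (log2 fold change -0.60, SE 0.074, adjusted p = 0.00044), as were YY1 at -0.32 (adjusted p = 0.00054) and PPARGC1B at -0.47 (adjusted p = 0.0073). TFAM, which packs mitochondrial DNA and starts its transcription, was lower as fitted at -0.42 (adjusted p = 0.0017) and at 0.028 with an adjusted p of 0.62 with the transcript correction. NRF1 was at 34.6 ± 2.83 CPM in overexpressing cells and 30.6 ± 1.40 CPM in controls (SD, n = 3 each, with a log2 fold change 0.18, SE 0.075, adjusted p = 0.09), and the coactivator PPARGC1A was at 0.749 ± 0.383 CPM in overexpressing cells and 1.42 ± 0.118 CPM in controls (SD, n = 3 each, with a log2 fold change -0.92, SE 0.38, adjusted p = 0.088); neither passed.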

How the data were processed

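Gene-level RNA-seq counts of 6 H1299 libraries, grouped as labelled, were used. Per the labels' protocols, the authors cleaned reads with fastp, mapped them to GRCh38 by HISAT2, built transcripts with StringTie and gffcompare, and ran edgeR. Versions, strand and the counting step are not stated in these sources. The deposited values are raw counts (whole numbers, not normalized) for 19201 entries, and every column was assigned to a sample.

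The main test was the quasi-likelihood F-test of edgeR 4.0.16 (R 4.3.3) on TMM-scaled counts with only the group in the model. filterByExpr at a min.count of 10 and a min.total.count of 15 kept 19101 entries, over all of which Benjamini-Hochberg adjustment was made; calls needed an adjusted p under 0.05. SE is the absolute log2 fold change over the square root of F. At 84531039 to 92780032 counts per library, entries under 1 CPM rest on few counts. Replicate libraries varied beyond Poisson counting (chi-square over its degrees of freedom 11.6 to 22.7), so none was merged.

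For the corrections, each library's departure in log2 CPM was modelled by natural splines (5 degrees of freedom) of GC content and log2 length from GENCODE 44, and the fitted curves served as offsets. GC content was known for 99.3% of tested entries. The version from coding sequence was added after seeing the data, because the canonical transcripts of several of these genes are very long; so were the background of abundant entries and its split by GC content. The NRF1 motif was shortened to its core after a longer form had been counted, so its counts were chosen after seeing the data; the longer form is not reported. The fits were tested on simulated data.

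The genes, the lists of assembly factors, regulators and markers, and the tests were chosen with earlier results of these data known, so counts over them are descriptions. Per-library values are given for up to 4 higher and 4 lower genes per complex with the smallest p, the paralogue groups, the SDH genes, CYC1 and CYCS; other genes were named after their values were seen. Single-gene results of some genes are not reported here, though counts and sums over the genes include them. Alternatives were DESeq2 1.42.0 size factors and test, library size alone, other filters, limma-voom (limma 3.58.1), the replicate number as a block, the 2-fold criterion, and leaving out each library.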

Additional observations from a re-analysis of the deposited data

How the results depend on the processing

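Of 1814 values of 107 genes under the alternatives (those named here and those the naming rule picks), 1449 kept direction and call, 279 lost the call, 42 gained it and 44 changed direction while called in either fit. The cause was not tested. With the transcript correction such values were 0.025 for SDHD, -0.035 for CYC1, 0.094 for CYCS, 0.016 for ATP5PB, -0.018 for COX8A, -0.0051 for ESRRA, 0.028 for TFAM, -0.12 for SDHAF1, -0.023 for BCS1L, 0.11 for SCO1, -0.016 for NDUFV1, 0.22 for NDUFA5, 0.31 for NDUFS1, -0.062 for KRT8, -0.068 for CD68, -0.12 for FOXRED1 and -0.18 for ECSIT, and 0.13 for ATP5F1C. With that correction and the replicate block together the values of all but ATP5F1C were, in the same order, 0.023, -0.035, 0.094, 0.016, -0.020, -0.0053, 0.028, -0.12, -0.025, 0.11, -0.017, 0.22, 0.31, -0.063, -0.068, -0.12 and -0.18. With the coding-sequence correction such values were -0.15 for UQCR11, -0.0029 for ATP5F1D, -0.15 for COX8A, -0.022 for COA3, -0.0011 for NDUFS7, -0.026 for ATP5IF1, 0.17 for ATP5F1C, -0.0058 for FOXRED1 and -0.11 for ECSIT.

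The transcript correction left 2041 entries higher and 2223 lower, against 3496 and 3754 as fitted, and 0 of the nuclear genes lower. The coding-sequence correction left 2124 entries and 23 nuclear genes higher, with 7 in complex I and 1 in complex III, and 3 genes lower. Library size alone gave 7 lower genes and 7 higher in complex V, and DESeq2 gave 2 higher in complex II. The 2-fold criterion gave 338 entries higher and 226 lower, 1 nuclear gene higher and 0 lower, and 0 higher in each of complexes I to V. Leaving out each library gave 28 to 42 genes higher and 1 to 4 lower, 0 to 2 higher in complex II, 4 to 9 in complex V, and 18 to 35 higher with the transcript correction. Over the whole table, 2586 to 3439 entries were higher and 2867 to 3730 lower as fitted without each library. Of the 14 genes higher in all 3 fits, 7 to 12 stayed higher as fitted in these fits and 9 with library size alone.

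Libraries with the same number did not vary together (r of -0.073, -0.26 and -0.44). These r values use departures from means of 3 libraries, so they cannot show whether the numbers pair the libraries. With the replicate block 33 genes were higher and 2 lower, all 33 among those higher without it, and 6 were higher in complex V. Over the whole table the block gave 2681 entries higher and 3014 lower. With the block and the transcript correction, 1516 entries were higher and 1640 lower, and 28 nuclear genes higher and 0 lower, with 11 in complex I, 2 in complex III and 7 in complex V. At these depths COX7A1, with 4 to 18 counts per library, and NDUFA4L2, with 22 to 88, rest on few counts, as do UQCRFS1-DT, with 8 to 27, and ATP5MF-PTCD1, with 11 to 46.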

Other observations

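NDUFA7, a supernumerary subunit of complex I, was singled out after its values were seen because 1 library stood apart. It was at 32.2, 33.1 and 11.0 CPM in overexpressing libraries 1 to 3, against 26.8, 22.3 and 22.5 CPM in controls 1 to 3. Overexpressing library 3 was at less than any other library, and as fitted the gene did not pass (log2 fold change 0.090, SE 0.33, adjusted p = 0.87). Without that library the log2 fold change was 0.45 (SE 0.094, adjusted p = 0.0064), and with the transcript correction as well it was 0.23 (adjusted p = 0.13). Over all the alternatives with all 6 libraries, the adjusted p ran from 0.55 to 0.95. The gene overlaps RPS28, a ribosomal protein gene, on the opposite strand and another annotated coding gene on its own strand, and their part in the value was not tested.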
